A study of Mus musculus with 6 samples.

Results

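The transcription factors that hold naive and memory CD8+ T cells in a resting state were followed in RNA-seq libraries of CD8+ T cells taken from mouse spleen. The members are 10 genes, Tcf7, Lef1, Satb1, Bach2, Foxo1, Foxp1, Klf2, Klf3, Id3 and Ets1, taken by symbol for this role from the 35458 genes with a value. All 10 were found, and all 10 passed the filter on low values (at least 1 FPKM in at least 3 libraries). FPKM divides fragments by gene length and by library depth, so levels of different genes can be compared per length. The 3 control libraries came from mice with the genotype Cd4cre, and the 3 KO libraries from Cd4creGlut10fl/fl mice, in which floxed alleles of Glut10 (gene Slc2a10, a member of the hexose transporter family) meet the same Cre. The Cre transgene is thus shared by both groups. It acts in developing T cells before the CD4 and CD8 lineages part, so deletion is not restricted to CD8+ cells. Age, sex, and how many animals stood behind a library are not given in the labels, so p-values cover no more than the variation among these libraries, part of which may be technical. The series title names lymphoma, and whether these mice carried tumours is likewise not given.

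As background, naive CD8+ T cells are kept quiescent by a set of factors that lose expression when the cell is activated. Tcf7 and its relative Lef1 encode HMG-box proteins that bind DNA and work with beta-catenin or Groucho/TLE co-repressors. Foxo1 enters the nucleus when growth factor signalling through Akt is low and is known to maintain Klf2, Il7r and Ccr7, which govern recirculation and survival.

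The libraries differed in ways the genotypes do not give, and these touch every result that follows. Totals implied by the FPKM values were 11840640 to 15036282 fragments among controls and in KO 2, but 3420291 in KO 1 and 3004540 in KO 3. The 16 T cell markers summed to 2040, 732 and 536 FPKM in control 1, 2 and 3 and 1997 to 3022 FPKM in the KO libraries, with both CD8 chains detected in each library and no T cell marker at 0. The 12 neutrophil markers summed to 15716 and 29105 FPKM in control 2 and 3, against 424 in control 1 and 67.9 to 623 in the KO libraries. For 4 of the 11 that passed the filter, every KO library lay below every control, against 9.44% of the genes tested. The 8 erythroid markers summed to 2217 and 1013 FPKM in control 2 and 3 and to 3.34 to 35.4 in the other 4 libraries. B cell markers, of interest because B cells also express Bach2, Foxo1, Foxp1, Klf2 and Ets1, summed to 15.9 to 87.6 FPKM over 10 genes. Of the 5 that passed the filter, 2 were higher in every KO library than in every control, against 6.70% of the genes tested. Macrophage markers summed to 76.3 to 558 FPKM and no member of that list separated the groups. The 4 markers of CD4 T cells, which also express these factors, summed to 24.9, 32.1 and 34.4 FPKM in control 1, 2 and 3 and to 14.2, 37.4 and 7.39 FPKM in KO 1, 2 and 3. Ctla4 alone gave 31.5 FPKM of the sum in KO 2. For the other 3 of these 4 markers, Cd4, Zbtb7b and Cd40lg, every KO library lay below every control, control 1 included. This compares with 9.44% of the genes tested. The median log2 difference of the 4 was -0.92. The 4 NK cell markers summed to 0.952 to 9.68 FPKM, and for 0 of 4 did the groups separate. KO 1 and KO 3 averaged 0.994 and 1.05 FPKM over 812 olfactory and vomeronasal receptor genes, which T cells do not use, against 0.0188 to 0.0800 FPKM in the other 4. The part of these differences in the results was not tested. Slc2a10 itself had 4, 2 and 2 implied reads among controls and 0 in each KO library, too few to check the deletion.

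**Figure D1:**
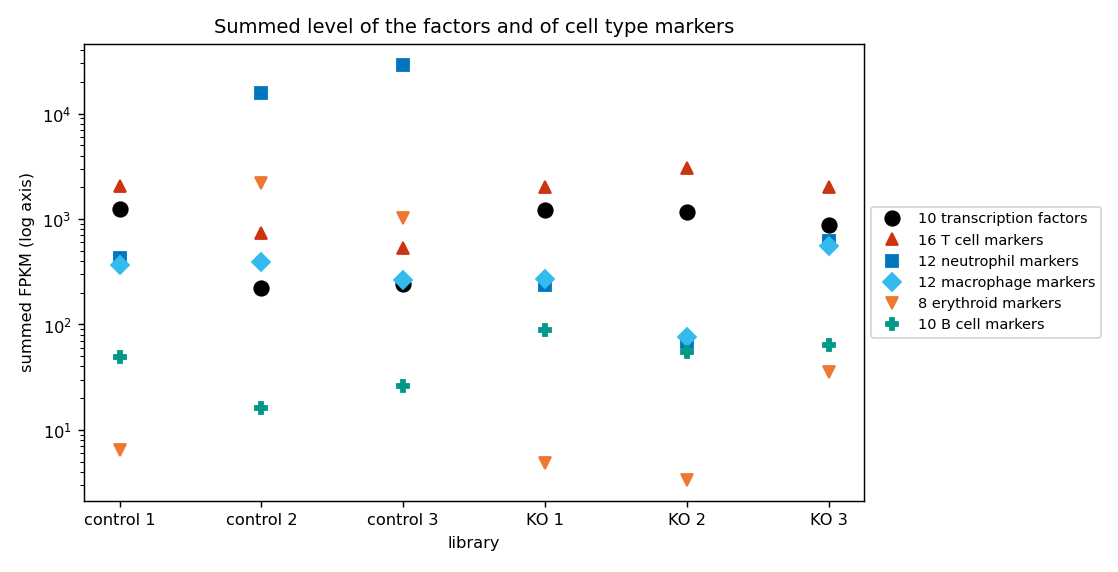
Summed FPKM (log axis) of the 10 transcription factors and of 5 cell type marker lists in each of the 6 libraries, with 1 point per list and library. The factors (black) summed to 222 and 244 FPKM in control 2 and 3, where neutrophil and erythroid markers were highest, and to 881 to 1244 FPKM elsewhere.

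The 10 factors were low together in control 2 and 3. Their summed level was 1244 FPKM in control 1, 222 in control 2 and 244 in control 3, and 1228, 1154 and 881 FPKM in KO 1, 2 and 3. For all 10 genes every KO library was above both control 2 and control 3, against 25.2% of the 13956 genes tested. For only 1 of 10, Foxo1, was every KO library also above control 1, against 6.70% of the genes tested. Since these are bulk samples, fewer cells of a type and less of an RNA per cell cannot be told apart. With at least 121 implied reads behind each value (Id3 in KO 3), the counting error was at most 9.09%. This is counting error alone and does not cover differences between samples.

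Promoter sequence is shown for the member that differed most between libraries, Klf2, and for the member whose groups did not overlap, Foxo1. Of the 10 factors, 9 had an entry in the RefSeq promoter table (build GRCm38.p6), and Ets1 is named only. The window read was 250 bases before the start site nearest to a principal GENCODE transcript. For Satb1 another window was equally near, and the one with the lower coordinate was read. Only the part before the first annotated exon base is given, 5′ to 3′ on the + strand, and capitals mark motif letters found on either strand.
Klf2, chr8:72318812-72319032: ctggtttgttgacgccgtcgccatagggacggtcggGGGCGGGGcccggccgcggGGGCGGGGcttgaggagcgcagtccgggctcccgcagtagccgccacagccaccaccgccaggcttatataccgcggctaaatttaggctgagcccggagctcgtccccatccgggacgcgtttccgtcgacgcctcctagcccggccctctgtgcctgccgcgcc
Foxo1, chr3:52268087-52268335: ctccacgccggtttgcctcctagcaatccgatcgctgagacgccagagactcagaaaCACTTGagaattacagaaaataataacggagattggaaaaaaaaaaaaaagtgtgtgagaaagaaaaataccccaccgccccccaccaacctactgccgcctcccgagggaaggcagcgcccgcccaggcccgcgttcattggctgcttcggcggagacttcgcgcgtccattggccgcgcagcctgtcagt
The capitals in Klf2 are 2 copies of GGGCGGGG, a GC box of the kind that KLF and SP proteins bind, and that in Foxo1 is 1 match to CANNTG, the E-box of the E proteins that Id3 inhibits. The GC box was in 5 of 9 member windows (Tcf7, Lef1, Klf2, Klf3 and Id3) and in 16.1% of all 32851 windows. Member windows also had a higher GC content, with a median of 62.8% against 52.4%. E-boxes were in 6 of 9 member windows and 66.2% of all. That count includes Satb1, whose equally near window held 0. CTTTGA, the core bound by Tcf7 and Lef1, was in 2 of 9 (Bach2 and Foxp1) and 13.8% of all, while the forkhead motif GTAAACA (3.17% of all) and the ETS motif CCGGAAGT (2.88%) were in 0 of 9. Overlapping matches were each counted as present once per window, and a match is a description of letters only. The windows of Lef1, Satb1, Klf3 and Id3 lay wholly within annotated exons, so the GC boxes of Lef1, Klf3 and Id3 are exon sequence. The Tcf7 window held no annotated exon base. From an ATG before its E-box and GC box, however, a reading frame without a stop codon runs to its end. Its matches may therefore be coding sequence.

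In what follows, 3 values for the controls or for the KO cells are in the order of the replicate number. Tcf7, a central regulator of naive, memory and stem-like T cells, was the most abundant factor in 5 of the 6 libraries. It measured 569, 102 and 120.3 FPKM among controls and 512, 659 and 235 FPKM among KO libraries. The groups overlapped, with control 1 above KO 1 and KO 3, and KO 3 stood well below its own group. The means were 264 ± 265 and 469 ± 215 FPKM (SD, n = 3 each), and the difference on the log2(FPKM + 1) scale was 1.16 (SE 0.74, limma adjusted p = 0.459).

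Lef1, which acts beside Tcf7 on many of the same sites, had one of the widest ranges. Its controls stood at 49.1, 7.71 and 5.94 FPKM and its KO libraries at 63.7, 47.2 and 63.6 FPKM. Control 1 was above KO 2, so the groups overlapped, while control 2 and 3 were 6.37-fold and 8.27-fold below control 1. Means of 20.9 ± 24.4 and 58.2 ± 9.54 FPKM (SD, n = 3 each) gave a log2 difference of 2.02 (SE 0.74, 95% interval 0.23 to 3.81, limma adjusted p = 0.417). The ratio of Tcf7 to Lef1 was 11.6, 13.2 and 20.2 among controls and 8.03, 14.0 and 3.70 among KO libraries, lowest in KO 3, where Klf2 rather than Tcf7 was the most abundant factor.

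Satb1, an organiser of chromatin loops that T cells need in the thymus and at rest, measured 26.9, 8.36 and 7.84 FPKM among controls and 25.6, 24.1 and 22.4 FPKM among KO libraries. The KO libraries lay within 1.14-fold of each other, the narrowest of the 10 factors, and all were below control 1. The log2 difference was 0.92 (SE 0.47, limma adjusted p = 0.419). Bach2, a repressor that restrains effector differentiation by competing with AP-1 factors, was the least abundant factor in each library. It measured 9.31, 3.07 and 3.49 FPKM among controls and 9.24, 8.39 and 7.17 FPKM among KO libraries. Here too control 1 was above all 3 KO libraries, and the log2 difference was 0.69 (SE 0.41, limma adjusted p = 0.445).

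Foxo1, the forkhead factor that sustains the naive programme, measured 12.7, 3.31 and 3.72 FPKM among controls and 16.9, 13.6 and 13.9 FPKM among KO libraries. The groups did not overlap, though KO 2 and KO 3 were close to control 1. Group means were 6.58 ± 5.31 and 14.8 ± 1.82 FPKM (SD, n = 3 each), with a log2 difference of 1.27 (SE 0.48, 95% interval 0.11 to 2.42, limma adjusted p = 0.417). Foxp1, a second forkhead factor that enforces quiescence, partly by opposing Foxo1 at Il7r, measured 13.8, 7.39 and 8.13 FPKM among controls and 19.8, 12.9 and 19.6 FPKM among KO libraries. Only KO 2 was below control 1. With means of 9.76 ± 3.49 and 17.4 ± 3.91 FPKM (SD, n = 3 each) its log2 difference was 0.80 (SE 0.32, limma adjusted p = 0.417).

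Klf2, which drives S1pr1 and so the exit of T cells from lymphoid organs, differed most between libraries. In the controls it measured 397, 36.9 and 37.8 FPKM, a 10.8-fold and 10.5-fold step from control 1 down to control 2 and 3. The KO libraries held 460.0, 214 and 433 FPKM, so control 1 lay inside their range. Means of 157 ± 208 and 369 ± 135 FPKM (SD, n = 3 each) gave a log2 difference of 2.07 (SE 0.95, 95% interval -0.23 to 4.36, limma adjusted p = 0.417). Klf3, a relative that represses through CtBP proteins, showed a smaller range, with 15.2, 5.44 and 8.20 FPKM among controls and 17.5, 9.96 and 14.1 FPKM among KO libraries. Both KO 2 and KO 3 were below control 1, and the log2 difference was 0.56 (SE 0.40, limma adjusted p = 0.504).

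Id3, an inhibitor that binds E proteins and marks long-lived memory precursors, had the smallest step between control 1 and control 2. It measured 24.9, 20.7 and 10.5 FPKM among controls and 24.2, 41.2 and 22.5 FPKM among KO libraries. Control 2 was only 1.21-fold below control 1, where the other 9 factors were 1.86-fold to 10.8-fold below it, and KO 2 alone exceeded control 1. The log2 difference was 0.65 (SE 0.39, limma adjusted p = 0.446). Ets1, which is needed for T cell survival and CD8 lineage development, measured 126, 27.3 and 38.0 FPKM among controls and 79.8, 125 and 49.1 FPKM among KO libraries. Control 1 was above all 3 KO libraries, KO 1 and KO 3 were below KO 2 by up to 2.54-fold, and the log2 difference of 0.62 was smaller than its error (SE 0.62, limma adjusted p = 0.623).

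**Figure D2:**
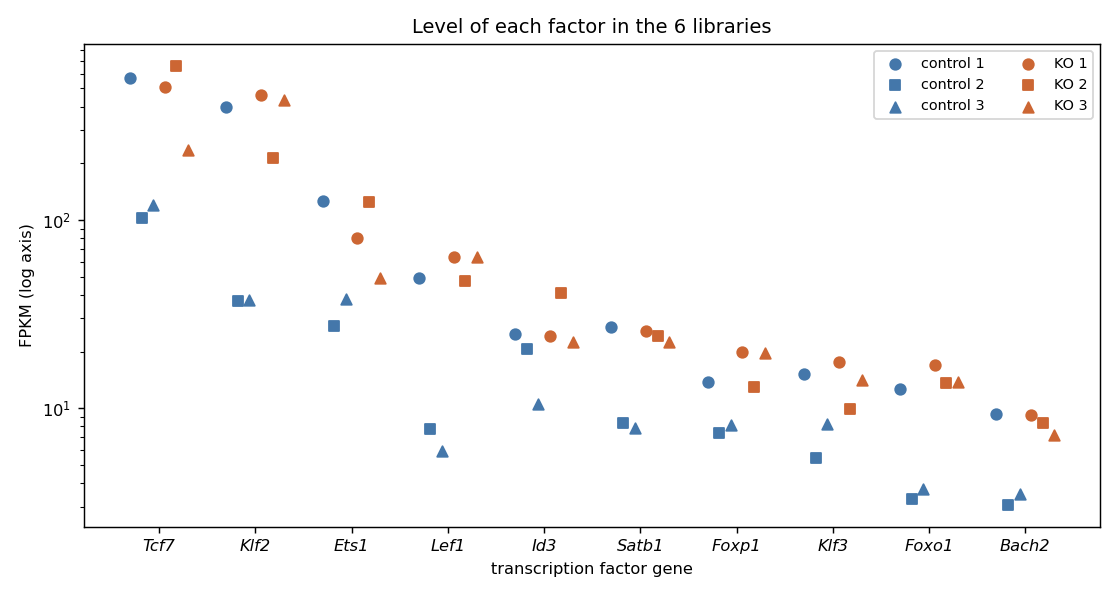
FPKM (log axis) of the 10 factors, ordered by mean level, with 1 point per library, controls in blue and KO libraries in orange. Control 2 and 3 are the lowest points for every factor, while control 1 lies among or above the KO libraries for 9 factors and below all of them for Foxo1.

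The order of levels, compared per length in FPKM, was Tcf7, Klf2 and Ets1 at the top in control 1, control 2, KO 1 and KO 2. Ets1 at 38.0 and Klf2 at 37.8 FPKM were level in control 3, and Lef1 took the third place in KO 3. Foxo1 and Bach2 were the lowest pair in 5 of the 6 libraries, and Satb1, Id3, Klf3 and Foxp1 changed places with one another from library to library. Within the KO group, KO 2 held the highest Tcf7, Id3 and Ets1 and the lowest Lef1, Klf2, Klf3, Foxp1 and Foxo1. KO 2 is also the KO library with the greater depth and the lowest olfactory receptor level.

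No factor passed limma at an adjusted p of 0.05, nor did any of the 13956 genes tested (0%). All 10 fitted differences were positive, against 56.9% of the genes tested, and their median was 0.86, against 0.10 over the genes tested. The T cell markers shared this, with 16 of 16 positive and a median of 1.09. For 5 of those 16 every KO library lay above every control, against 6.70% of the genes tested. At an unadjusted limma p under 0.05 there were 3 of 10 (Lef1, Foxo1 and Foxp1), against 5.33% of the genes tested that were higher in KO at that level (744 genes, with 902 lower). Leaving out control 2 and 3 changed this: the median of the 10 became -0.16, against -0.06 over all genes, and 4 of 10 estimates were positive, against 44.9%. In that fit, where the lone control is assumed to vary like the KO libraries, the largest values were 0.30 for Foxp1 and -0.67 for Ets1. Without KO 1 and 3, all 10 stayed positive with a median of 1.17, against 50.9% positive and a median of 0.01 over all genes. Without control 1, so with only the neutrophil-rich controls on that side, 4 factors passed limma, Lef1 at 2.91 (adjusted p = 0.0233), Klf2 at 3.19 (adjusted p = 0.0303), Satb1 at 1.46 (adjusted p = 0.0352) and Foxo1 at 1.80 (adjusted p = 0.0364). In the same fit 1.05% of all genes passed as higher in KO and 1.55% as lower. Without KO 2, 12.1% of all genes passed as higher in KO, and 0 of the 10 factors did.

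**Figure D3:**
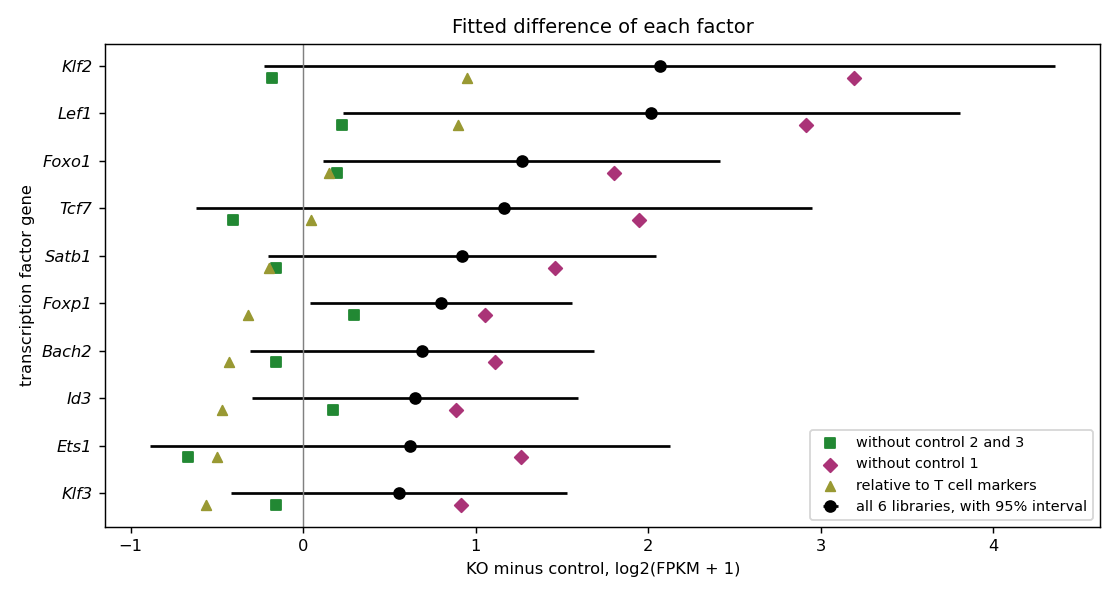
Fitted KO minus control difference of each factor on the log2(FPKM + 1) scale, with the 95% interval from all 6 libraries (black) and estimates from 3 alternatives (coloured). Without control 2 and 3 the estimates lie between -0.67 and 0.30, and without control 1 between 0.89 and 3.19.

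To set the factors against the T cell RNA of the same library, the log2(FPKM + 1) values of the 16 T cell markers were averaged and this mean was subtracted from every gene. These markers averaged 6.53, 5.01 and 4.75 among controls and no lower than 6.21 in any KO library on that scale, a difference of 1.12. On this scaling 4 of 10 factors had a positive difference, against 13.0% of the genes tested, and the median was -0.26 against -1.02 over all genes. Klf2 (0.95) and Lef1 (0.90) remained the most positive, Foxo1 (0.15) and Tcf7 (0.04) were near 0, and Satb1, Foxp1, Bach2, Id3, Ets1 and Klf3 turned negative (-0.20 to -0.56). None passed limma on this scaling either, where the adjusted p of the 10 ran from 0.311 to 0.957.

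The factors differed in their order on this scale. Relative to T cell markers, Klf2 was 2.11 in control 1, 0.23 and 0.53 in control 2 and 3, and 2.41, 0.75 and 2.55 in the KO libraries. Lef1 was -0.88 in control 1, -1.89 and -1.95 in control 2 and 3, and -0.42, -1.41 and -0.20 in the KO libraries. For both genes control 2 and 3 were the lowest of the 6. Id3 had the opposite order, with -0.58 and -1.22 in control 2 and 3 above the other 4 libraries (-1.83 to -1.60), and Bach2 was also highest there (-2.99 and -2.58, against -3.76 to -3.08). Satb1 changed least, from -1.79 to -1.61 in 5 libraries, with KO 2 apart at -2.34. KO 2, which had the highest T cell marker level, was lowest of the 6 on this scale for Satb1, Bach2, Foxo1, Foxp1 and Klf3.

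**Figure D4:**
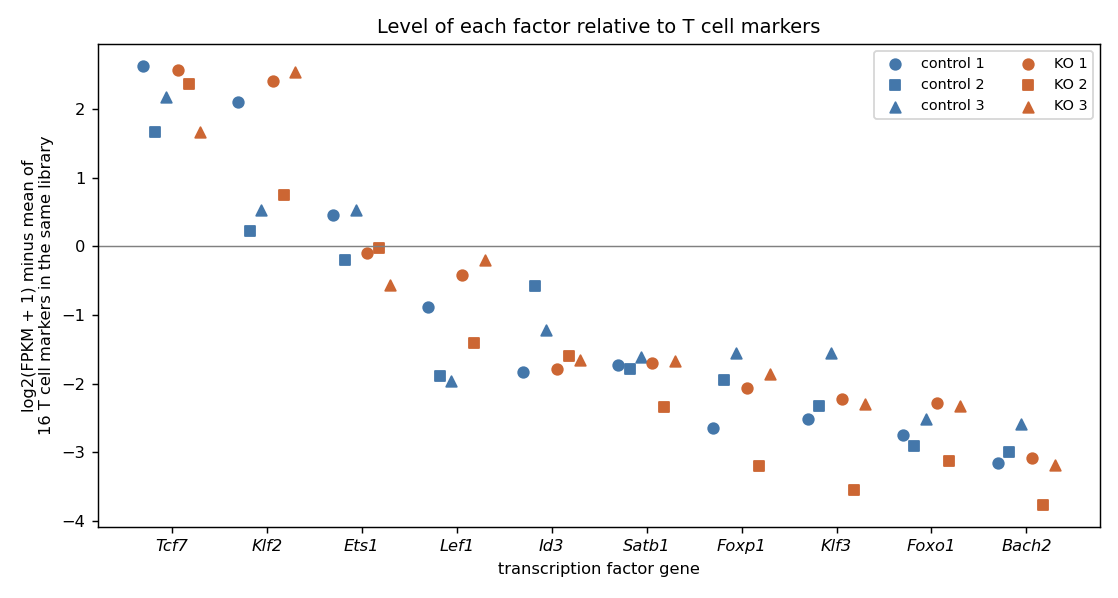
Level of each factor relative to T cell markers, as log2(FPKM + 1) minus the mean of the 16 markers in the same library, with 1 point per library. Klf2 and Lef1 are lowest in control 2 and 3, whereas Id3 and Bach2 are highest there.

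The ratio to 1 T cell gene, Cd3e of the T cell receptor complex, was taken as well, after the values were seen. Klf2 stood at 6.90, 2.51 and 2.76 times the FPKM of Cd3e among controls and 10.6, 3.40 and 13.0 times among KO libraries. Ets1 to Cd3e ran from 1.47 to 2.77 over the 6 libraries, and Tcf7 to Cd3e from 6.95 to 11.8, with no separation of the groups in either. Id3 to Cd3e was 1.41 in control 2 and 0.434 to 0.770 in the other 5 libraries.

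Relatives of the factors had estimates in both directions. Of 31 family relatives matched, 26 were tested. Of these, 10 had higher estimates in KO, against 56.9% of the genes tested, and 16 lower. None passed, and the median was -0.24, against 0.10 for all genes. At an unadjusted limma p under 0.05 there were 1 higher and 4 lower, against 5.33% and 6.46% of the genes tested. The members with the smallest p were Klf4, a relative of Klf2 that myeloid cells also express, at 6.73 ± 2.64 FPKM among controls and 1.80 ± 0.688 among KO libraries, and Ets2 at 20.5 ± 10.1 and 6.97 ± 0.916 FPKM. Bach1, which shares the BTB and leucine zipper domains of Bach2, measured 25.2 ± 14.2 and 9.10 ± 4.71 FPKM. Tcf7l1, a relative of Tcf7, measured 0.678 ± 0.587 and 3.89 ± 2.64 FPKM, with 4.92 and 5.85 FPKM in KO 1 and KO 3 but 0.885 in KO 2 (SD, n = 3 for each of these means). All 4 had a limma adjusted p of 0.417. Klf4, Ets2 and Bach1 were highest in control 2 and 3, as were the neutrophil markers, whose part in these values was not tested. For Klf4 and Ets2 every KO library was also below control 1. Every KO library lay below every control for 4 of the 26, against 9.44% of the genes tested. It lay above for 1 of the 26, against 6.70%. Without control 2 and 3 the estimates of Klf4, Ets2 and Bach1 were -0.82, -0.47 and -0.67, and that of Tcf7l1 was 0.85. Relative to T cell markers the estimates of Klf4, Ets2 and Bach1 were -2.55, -2.43 and -2.46, and that of Tcf7l1 was 0.27.

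Pairs of a factor and a relative, picked after their values were seen, were compared within each library. The ratio of Klf2 to Klf6 was 7.09 in control 1, 7.14 to 8.01 in the KO libraries, and 0.453 and 0.375 in control 2 and 3. Bach2 to Bach1 was 0.667 in control 1, 0.150 and 0.0848 in control 2 and 3, and 0.642, 1.56 and 0.950 among KO libraries. Foxo1 to Foxo3 was 1.09 in control 1, 0.287 and 0.202 in control 2 and 3 and 1.19 to 1.58 in the KO libraries. For Ets1 to Fli1, control 2 and 3 stood at 1.09 and 1.16 and the other 4 libraries at 2.14 to 4.37. Id3 to Id2 showed no such step, at 0.235, 0.498 and 0.315 among controls and 0.340, 0.768 and 0.422 among KO libraries, with Id2 the more abundant of the pair in each library. Foxp1 to Foxp4 went the other way, with 0.408 in control 1 against 1.02 and 0.882 in control 2 and 3, and 0.583, 0.551 and 1.08 among KO libraries. Control 2 and 3 also had the highest neutrophil and erythroid marker sums, whose part in these ratios was not tested.

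**Figure D5:**
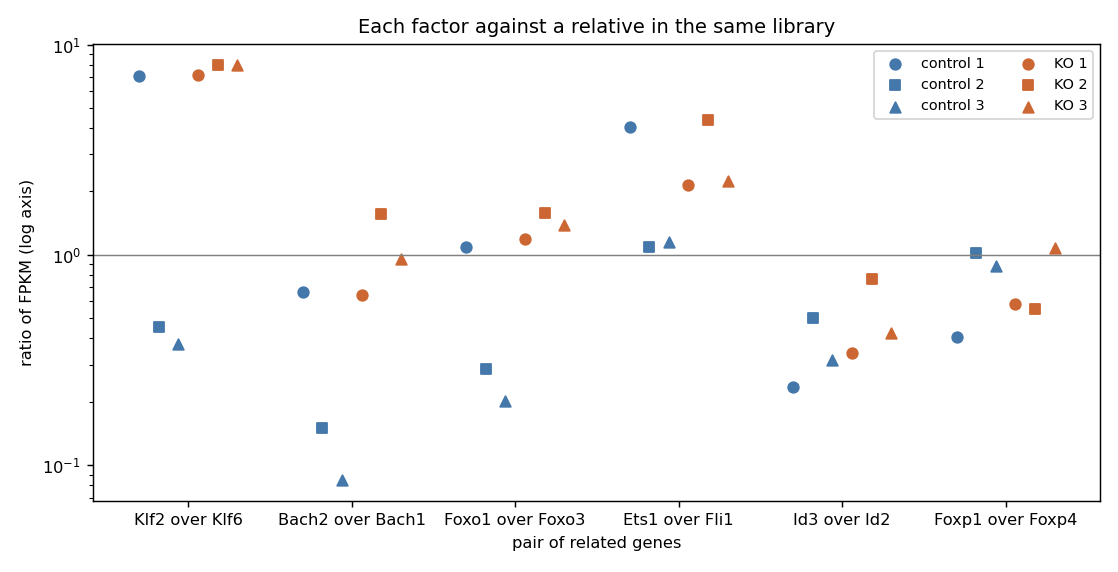
Ratio of FPKM (log axis) between a factor and a relative in the same library, with 1 point per library and a line at 1. Klf2 over Klf6 is 7.09 to 8.01 in control 1 and the KO libraries and 0.375 to 0.453 in control 2 and 3, while Id3 over Id2 and Foxp1 over Foxp4 show no such gap.

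Of 18 matched partner genes, 16 were tested. Of these, 10 had higher estimates, against 56.9% of the genes tested, and 6 lower. None passed, and the median was 0.10, equal to that of all genes. Their median was -0.16 without control 2 and 3, against -0.06 over all genes, and -1.01 relative to T cell markers, against -1.02. Its sign turned in both, as did that of all genes. Ctnnb1, the beta-catenin that binds Tcf7 and Lef1, measured 62.3 ± 1.80 FPKM among controls and 40.5 ± 7.59 among KO libraries (SD, n = 3 each). Its fitted log2 difference was -0.63 (SE 0.21, limma adjusted p = 0.417). Every KO library lay below every control, against 9.44% of genes tested. It measured 60.2, 63.2 and 63.5 FPKM in control 1, 2 and 3, so control 2 and 3 did not stand apart, and its estimate without control 2 and 3 was -0.58. Tle5, a short Groucho family member, measured 76.1 ± 28.2 and 120.2 ± 8.91 FPKM, and Mafk, a small Maf protein that dimerises with Bach proteins, 18.6 ± 1.16 and 12.96 ± 3.14 FPKM. Runx1 measured 5.79 ± 1.86 and 3.57 ± 1.27 FPKM (SD, n = 3 for each mean). The 3 had a limma adjusted p of 0.417, 0.417 and 0.456.

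Genes that mark naive and memory cells include several targets of Foxo1, Klf2, Tcf7 or Lef1. Of 22 tested, 20 had higher estimates, against 56.9% of the genes tested, while Igfbp4 (-1.25) and Btg1 (-0.06) had lower ones. For 5 of 22 every KO library lay above every control, against 6.70% of the genes tested. At an unadjusted limma p under 0.05 there were 6 higher and 0 lower, against 5.33% and 6.46%. None passed at an adjusted p of 0.05, and the median of the 22 was 1.22, against 0.10 over all genes. That median was 0.05 without control 2 and 3, against -0.06, and 0.10 relative to T cell markers, against -1.02. Il7r, Ccr7 and S1pr1 were chosen after their values were seen, for their ties to Foxo1 and Klf2. Il7r, the IL-7 receptor chain, measured 370, 40.9 and 25.4 FPKM among controls and 518, 253 and 409 FPKM among KO libraries, and control 1 again lay inside the KO range. S1pr1, the receptor for exit from lymphoid organs, measured 129.9, 23.1 and 23.5 FPKM and 142, 84.8 and 86.9 FPKM. Ccr7, which guides entry into lymph nodes, stood at 451, 177 and 199 FPKM and at 565, 427 and 367 FPKM.

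The 4 genes of that list with the smallest p were Dapl1, Cxcr5, Pik3ip1 and Cd27, each with a limma adjusted p of 0.417. Pik3ip1, an inhibitor of PI3K signalling, measured 68.8, 12.9 and 10.8 FPKM among controls and 98.0, 69.3 and 101 FPKM among KO libraries. Cd27, a costimulatory receptor of resting cells, measured 79.3, 30.3 and 19.5 FPKM and 87.2, 120.0 and 78.3 FPKM. Dapl1 differed from control 1 as well, with 30.7 FPKM in control 1 and 72.3 or more in each KO library, and its estimate was 1.35 without control 2 and 3 and 1.15 relative to T cell markers. Cxcr5, at 4.13 FPKM in control 1 and 5.62 to 11.9 in the KO libraries, had 0.70 and 0.17 in those fits.

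Effector factors, which oppose the naive programme, had higher estimates in 8 of 12 tested, against 56.9% of the genes tested, and lower in 4. None passed, and the median was 0.16, against 0.10 over all genes. Their median was -0.74 without control 2 and 3, against -0.06 over all genes, and -0.96 relative to T cell markers, against -1.02. Its sign turned in both, as did that of all genes. At an unadjusted limma p under 0.05 there were 0 higher and 3 lower, against 5.33% and 6.46% of the genes tested. The 4 with the smallest p, Nfil3, Zeb2, Bhlhe40 and Irf4, were the ones with lower estimates, -1.41, -1.64, -1.14 and -1.14 (limma adjusted p = 0.417 for each), and every KO library lay below every control for these 4 of 12, against 9.44% of the genes tested. Zeb2 measured 2.78, 8.17 and 10.2 FPKM among controls and 1.55, 0.727 and 1.89 FPKM among KO libraries. All 4 were highest in control 2 and 3, as were the neutrophil markers, whose part in these values was not tested. Without control 2 and 3 the estimates of Nfil3, Zeb2, Bhlhe40 and Irf4 were -1.0, -0.69, -0.91 and -0.78.

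By their profile over the 6 libraries, centred on each gene's mean log2(FPKM + 1), Satb1 (root mean square distance 0.10) and Foxo1 (0.12) lay closest to the mean of the 10 factors, and Klf2 (0.82), Lef1 (0.60) and Id3 (0.56) farthest. Klf2 and Lef1 had the widest profiles, spanning 3.60 and 3.22 log2 units, against a median of 1.09 over protein-coding genes tested. The other genes nearest to the mean profile were Map4k1, Btbd11, Pdcd4, Selplg, Tbc1d22b and Zfp579, at distances of 0.07 to 0.11, where the median protein-coding gene was at 0.82. Map4k1, a kinase that dampens T cell receptor signalling, measured 47.1, 13.2 and 12.6 FPKM among controls and 51.9, 45.7 and 36.6 FPKM among KO libraries. Pdcd4, a translation inhibitor, stood at 148, 47.7 and 43.5 FPKM and at 165, 129 and 122 FPKM. The likeness is over 6 libraries that share the same split, and describes only that.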

How the data were processed

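Per the labels, RNA came from frozen splenic CD8+ T cells by Trizol, and NEBNext Ultra reagents gave the libraries. Per the submitters' processing notes, HTSeq 0.6.0, HISAT2 2, Bowtie2 2.2.3 and, as build, mm8 were used, in roles not given in the sources used here, nor are strand setting and annotation. The deposited values are FPKM per gene and library, a unit read from the values. Of 35458 identifiers, 35313 matched GENCODE M21, whose summed exon lengths gave implied reads. Of values below 200 implied reads, 92.1% to 93.4% were within 0.02 of a whole number. Libraries of 1 group differed beyond sampling noise (chi-square per gene of 16.4 to 195). Exons of Lef1, Satb1, Bach2, Foxo1, Foxp1 and Klf3 overlap other gene models, at most 13.7% of exon bases (Lef1, with Gm43352, antisense, up to 2.02 FPKM). Without a known strand setting such reads cannot be told apart.

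Genes reaching 1 FPKM in 3 or more libraries were tested on log2(FPKM + 1), which understates changes of low genes, with limma 3.58.1 (R 4.3.3), an intensity trend, no covariate beside group, and Benjamini-Hochberg adjusted p over 13956 genes. Intervals are limma's 95%, and errors of means are SD. The procedure was tested on simulated data with a set dispersion, the spread between libraries beyond counting. At a dispersion of 0.01 it recovered 69% of 2-fold and 96% of 4-fold changes. At 0.1 it recovered 6% and 61%, so factors that did not pass may still differ. The simulated libraries lacked the marker differences seen here, and neither dispersion was estimated from these data. For Tcf7, Lef1 and Klf2 the SD among controls was above the mean, so recovery for such genes may be lower than these shares. Symbols gave 158 of 159 list entries and a synonym 1 (Tle5). From each list up to 4 genes by smallest p were named, with others said to be chosen after their values were seen. The members and lists were chosen with earlier results of these data known. Tables and plots used Python 3.11.15, pandas 2.3.3 and matplotlib 3.10.9.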

Additional observations from a re-analysis of the deposited data

How the results depend on the processing

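Of 150 values of the 10 factors over 15 alternatives, 134 kept their direction and stayed short of the threshold, 4 passed it (all without control 1, given above) and 12 turned. The count of genes passing was 0 for all 6 libraries and 0 to 1821 with a library left out (363 without control 1, 1821 without KO 2), and 0 in the other settings. The count of factors passing was 0 to 4 with a library left out, and their median difference 0.67 to 1.36. That median was -0.26 relative to T cell markers and -0.16 without control 2 and 3. Values that turned relative to T cell markers were Bach2 -0.43, Ets1 -0.50, Foxp1 -0.32, Id3 -0.47, Klf3 -0.56 and Satb1 -0.20, which follows from subtracting 1.12 from each difference. Those that turned without control 2 and 3, which leaves 1 control, were Bach2 -0.16, Ets1 -0.67, Klf2 -0.18, Klf3 -0.16, Satb1 -0.16 and Tcf7 -0.40. The cause was not tested. Quantile normalization moved the median of all genes from 0.10 to -0.12 and the share of positive estimates from 56.9% to 42.2%, and kept all 10 factors positive with a median of 0.67. At an unadjusted p under 0.05, limma gave 1646 genes and limma-voom on implied reads 1413, with 0 passing in either. Same-numbered libraries of the 2 groups correlated in their deviations at 0.11, 0.02 and 0.02, and differently numbered ones at -0.21 to 0.14. With 3 libraries in each group, these values cannot decide whether the numbers are a pairing. With the replicate block 0 genes and 0 factors passed, with 1692 genes at an unadjusted limma p under 0.05 and a median of the factors of 0.86. Depth was lowest in KO 1 and KO 3, and the smallest count behind a factor was 121 implied reads (Id3 in KO 3).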
